A study of Mus musculus with 3 samples.

Results

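The chief cells of the gastric gland were followed through 7 of their genes, all of which were found on the arrays: the secreted products Cblif (listed as Gif), Pgc, Pga5, Chia1 (listed as Chia) and Cpb1, and the maturation and granule factors Bhlha15 and Rab3d. They were picked by gene name from the 43020 gene spots of each array and were represented by 9 probes, with 2 probes each for Pgc and Rab3d, each probe on 1 spot. The array held 39429 gene probes in all, and 19437 genes were tested. RNA came from 3 diffuse-type gastric cancers that arose in Atp4b-Cre+;Cdh1loxP/loxP;Trp53loxP/loxP mice aged 12 months, labelled with Cy5 (red), and from a pool of 5 normal gastric mucosae of 12-month-old Atp4b-Cre-;Cdh1loxP/loxP;Trp53loxP/loxP mice, labelled with Cy3 (green). Both groups therefore carried the same floxed alleles of Cdh1, the E-cadherin gene, and Trp53, the p53 gene, and they differed in the Cre recombinase, whose Atp4b promoter is that of a parietal cell gene. The mucosae had been freed of stroma mechanically in 30 mM EDTA, a step that the labels do not give for the tumours. The pool is 1 control sample on every array, so its aliquots show no variation among normal mice.

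Chief cells, also called zymogenic cells, lie at the base of the gland in the gastric corpus and store digestive zymogens in large granules. In the mouse they arise from mucous neck cells, and the transcription factor MIST1, the product of Bhlha15, together with XBP1 enlarges their secretory apparatus. Pgc and Pga5 encode pepsinogens, Chia1 an acidic chitinase, Cblif the intrinsic factor that binds vitamin B12, and Cpb1 a carboxypeptidase better known from pancreatic acinar cells. Rab3d encodes a small GTPase on the membrane of secretory granules and is a known target of MIST1. Murine chief cells, unlike those of humans, are the main source of intrinsic factor.

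The labels were first checked on the targeted genes and on markers of other cells. The log2 ratio of tumour over pool was -4.24 ± 0.85 (SD, n = 3) for Cdh1 (limma adjusted p = 0.00186), -0.21 ± 0.15 for Trp53 (adjusted p = 0.161) and -6.83 ± 0.14 for Atp4b (adjusted p = 0.000235). The labels do not say which exons Cre removes, so neither targeted gene's probe could be placed inside or outside them. Between 64.0% and 66.8% of gene spots were well above background in red and between 52.5% and 54.2% in green, and 0 gene spots were saturated. A gene was called at a Benjamini-Hochberg adjusted p under 0.05 and a difference of at least 2-fold, and 1882 of 19437 genes were called lower (9.68%) and 1814 higher (9.33%). The share of higher genes among those called was 49.1%, but 93.3% when each array was centred on its median gene spot (median centring) and 59.2% when arrays were centred on spike-in controls.

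Of the 7 chief cell genes, 6 were called lower in the tumours and 0 were called higher, against a background of 9.68% of all genes called lower and 9.33% called higher. Chia1 fell 287-fold, Cblif 237-fold, Pgc 30.4-fold, Bhlha15 14.8-fold, Pga5 11.9-fold and Rab3d 2.59-fold. Cpb1 was 1.39-fold lower and was not called. The median log2 ratio of the 7 genes was -3.88, beside 0.05 for all genes tested. In bulk tissue, fewer chief cells and less RNA per chief cell cannot be told apart, and the tumour and pool samples also differ in stroma.

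**Figure D1:**
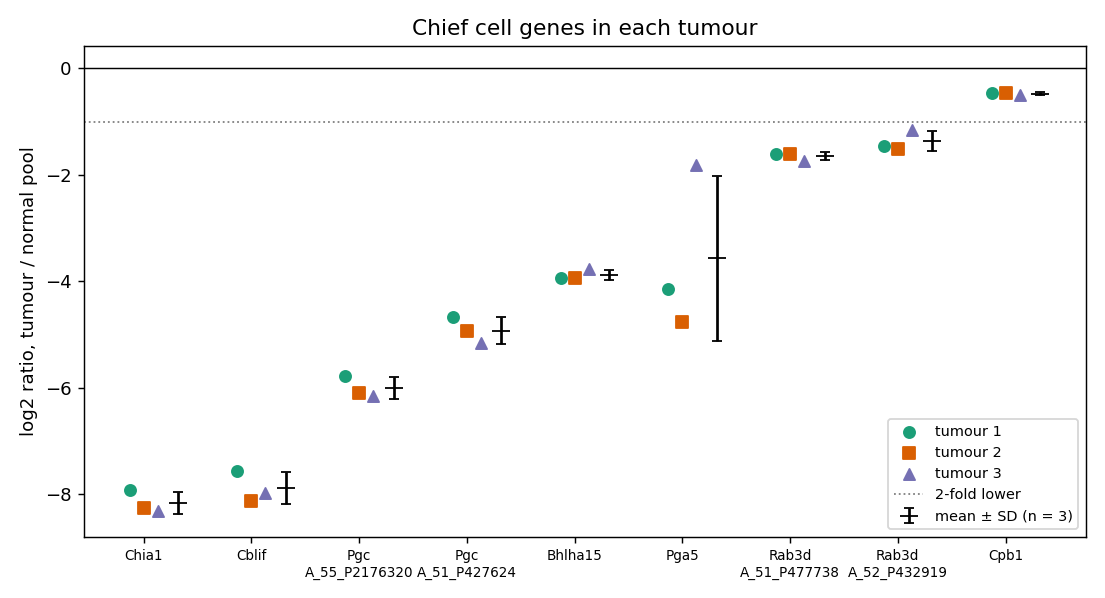
Log2 ratio of tumour over normal pool for the 9 probes of the chief cell genes, ordered by their mean; points are the 3 tumours, bars are the mean ± SD (n = 3) and the dotted line marks a ratio 2-fold lower. Chia1 and Cblif lie near -8 in every tumour, Cpb1 lies near -0.5, and the third tumour stands apart from the others at Pga5 (-1.82).

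Chia1 had the lowest log2 ratio of all 19437 genes tested. Its scanner signals before background correction were 143223, 140008 and 137394 in the pool and 2199, 2403 and 2106 in tumours 1, 2 and 3. The log2 ratios were -7.92, -8.25 and -8.32, with a mean of -8.16 ± 0.21 (SD, n = 3; limma adjusted p = 0.000235). After background correction and normalisation, the tumours were at 0.314% to 0.412% of the pool level. The scanner signals above do not give these shares, because the colours are not on 1 scale before normalisation. The tumour signals were well above background on all 3 arrays. The probe lies on chromosome 3 from 105934967 to 105935026 in mm9, the build of all probe positions given here.

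Cblif had the second-lowest ratio. The pool gave scanner signals of 86948, 86371 and 78854, and the tumours gave 1619, 1499 and 1399. Its log2 ratios were -7.55, -8.13 and -7.97, with a mean of -7.89 ± 0.30 (SD, n = 3; limma adjusted p = 0.000235). The probe lies on chromosome 19 from 11837878 to 11837937. On each array Chia1 was lower than Cblif, but the ranges of their ratios overlapped and their means were closer than the SD of Cblif. The genes outside the set with the ratios nearest to those of Cblif, by Euclidean distance over the 3 arrays, were the amylase gene Amy2a5 (distance 0.577) and the potassium channel subunit gene Kcne2 (distance 0.661). The same genes were nearest to Chia1, at distances of 1.04 and 1.15.

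Pgc was measured by 2 probes that both fell. The brighter probe, A_51_P427624, lies on chromosome 17 from 47871203 to 47871263, and its log2 ratios were -4.67, -4.94 and -5.17 (mean -4.92 ± 0.25, SD, n = 3; limma adjusted p = 0.000334). The other probe, A_55_P2176320, lies from 47869392 to 47869451, and its ratios were -5.77, -6.09 and -6.15 (mean -6.0 ± 0.20, SD, n = 3; adjusted p = 0.000226 over all probes kept). The ranges do not overlap, so the size of the fall depended on the probe, at 30.4-fold or 64.1-fold. The scanner signal of the brighter probe was still 37794, 41791 and 40164 in the tumours, against 200965, 197771 and 215106 in the pool. Among all genes, the brighter probe ranked 49th from the lowest ratio. Nearest to it were Gsdma2, a gasdermin gene (distance 0.184), and Pla2g1b, a secreted phospholipase gene (distance 0.358).

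Pga5 fell in all 3 tumours but to different extents. The pool gave near-constant scanner signals of 1384, 1420 and 1398. Tumours 1 and 2 gave 176 and 170, whereas tumour 3 gave 1332. The log2 ratios were -4.14, -4.76 and -1.82, with a mean of -3.57 ± 1.55 (SD, n = 3; limma adjusted p = 0.0116). Tumour 3 thus retained 28.3% of the pool level after normalisation, and tumours 1 and 2 retained 5.69% and 3.70%. Without tumour 3 the mean was -4.44 (adjusted p = 0.00977), without tumour 2 it was -2.98 (adjusted p = 0.0401), and without tumour 1 it was -3.29. Nearest to Pga5 were Pgap4 (distance 0.563) and Ces1f, a carboxylesterase gene (distance 0.718). Their tumour 3 ratios, -2.18 and -2.22, were their highest, which follows from picking them by closeness to the 3 Pga5 ratios. The probe's position spans 134 bases of chromosome 19, from 10743903 to 10744036, for 60 bases of sequence. Its ratios overlapped with those of Pgc and of Bhlha15. The other pepsinogen did not share this pattern, since tumour 3 had the lowest of the Pgc ratios at both probes.

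The probes for Pgc, Pga5 and the first of those for Rab3d described below are shown because they bear on these differences between probes and tumours; they are the member probes with at least 2 of 3 forward reading frames open over all 60 bases. They are the sequences printed in the array files, 5′ to 3′, with no part in capitals. The brighter Pgc probe spans 61 bases of mm9 for its 60 bases of sequence, and the other Pgc probe spans 60.
Pgc A_51_P427624: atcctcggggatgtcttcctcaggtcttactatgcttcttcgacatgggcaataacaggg
Pgc A_55_P2176320: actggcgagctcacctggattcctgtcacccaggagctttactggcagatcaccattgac
Pga5 A_51_P480861: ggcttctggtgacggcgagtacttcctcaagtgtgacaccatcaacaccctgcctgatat
Rab3d A_51_P477738: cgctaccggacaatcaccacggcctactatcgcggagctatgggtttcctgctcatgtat

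Bhlha15, the gene of the maturation factor MIST1, fell to a similar extent in all tumours. Its scanner signals were 1100, 1081 and 1074 in the pool and 157, 240 and 227 in the tumours. The log2 ratios were -3.94, -3.94 and -3.77 (mean -3.88 ± 0.10, SD, n = 3; limma adjusted p = 0.000306). This SD was below the median SD of a probe's log2 ratio between arrays, 0.20, taken over the 19199 probes well above background in both channels. The probe lies on chromosome 5 from 144955175 to 144955234. All 3 ratios of Bhlha15 were above those of Pgc and below those of Rab3d, while they fell within the range of Pga5. The nearest genes were Trim50 (distance 0.274), which encodes a ubiquitin ligase of the tripartite motif family, and Hecw2 (distance 0.373), which encodes another ubiquitin ligase.

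Rab3d fell least among the called members. Probe A_51_P477738, on chromosome 9 from 21719348 to 21719407, had log2 ratios of -1.61, -1.62 and -1.74 (mean -1.66 ± 0.07, SD, n = 3; limma adjusted p = 0.000866 over all probes kept). Probe A_52_P432919, from 21713734 to 21713793, was brighter and carried the call, with ratios of -1.45, -1.51 and -1.15 (mean -1.37 ± 0.19, SD, n = 3; adjusted p = 0.00201). Every ratio of the first probe was lower than every ratio of the other, and the means were further apart than either SD. Scanner signals of the colours are not on 1 scale before normalisation: the brighter probe gave 2016, 2766 and 2728 in the tumours and 1996, 1913 and 1713 in the pool. The tumours retained 35.2% to 45.0% of the pool level at the brighter probe. Rab3d lost its call under 2 of the 3 other centrings, at -0.89 for spike-ins (adjusted p = 0.0154, under 2-fold) and at -0.13 for the median (adjusted p = 0.470), and kept it when arrays were centred on the tested genes (-1.41, adjusted p = 0.00184). Its ratio ranked 1214th from the lowest, and the nearest genes were Vps13c, which encodes a lipid transfer protein (distance 0.0300), and Gpd1l (distance 0.0673).

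Cpb1 was close to background in both tissues. Its scanner signals were 59.0, 64.3 and 59.6 in the pool and 42.1, 57.1 and 38.1 in the tumours. The probe, on chromosome 3 from 20149467 to 20149526, was well above background on 3 arrays in green and on 1 array in red. The log2 ratios were -0.47, -0.46 and -0.51 (mean -0.48 ± 0.03, SD, n = 3; limma adjusted p = 0.0135), which is under 2-fold. The normexp offset of 50, which is added to every signal, pulls the ratio of so dim a probe towards 0. Cpb1 was called lower at -1.47 with an offset of 0 (adjusted p = 0.00167) and, from Agilent's processed signals, at -3.34 (adjusted p = 0.00279). Spike-in centring, which kept the offset of 50, also gave a lower call, at -1.49. For Cpb1 the authors' deposited table holds a value for tumour 2 only, -2.33. Nearest to it were Atg4b, an autophagy protease gene (distance 0.0194), and Cyp4f17, a cytochrome P450 gene (distance 0.0339), neither of which was called. The size of the Cpb1 difference was therefore not resolved at this signal.

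**Figure D2:**
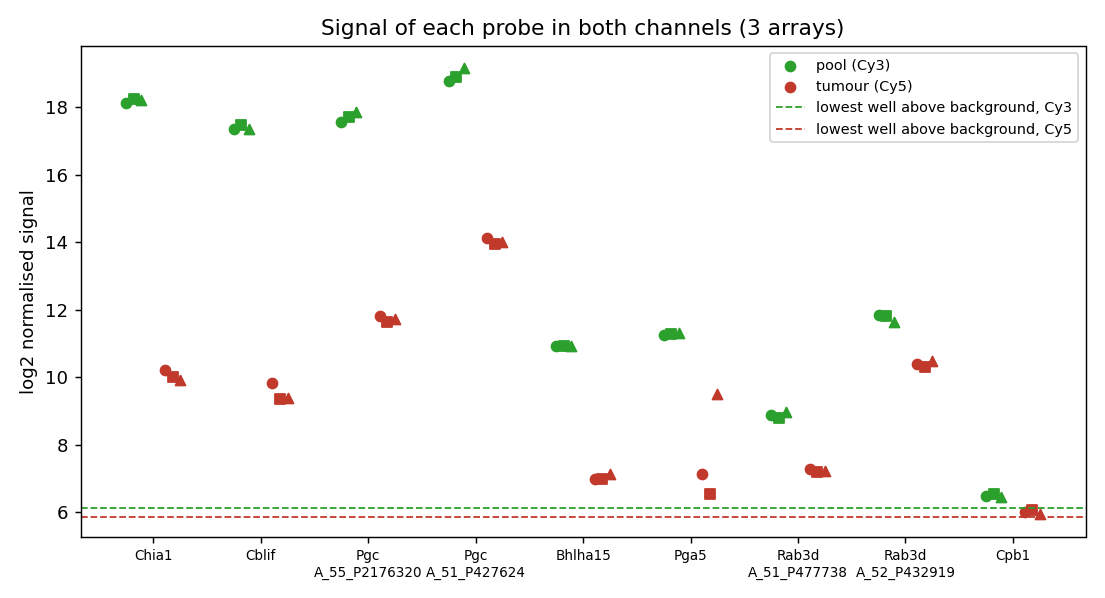
Log2 normalised signal of the 9 probes in the pool (Cy3, green) and the tumours (Cy5, red); circles, squares and triangles are arrays 1, 2 and 3, and each dashed line is the highest, over the 3 arrays, of the lowest signal well above background in that channel. Pool signals agree closely between arrays, tumour 3 is the high red point at Pga5 (9.5, against 7.12 and 6.54), and Cpb1 lies near both lines.

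The windows upstream of the annotated gene starts are shown for 4 members that fell, Chia1 and Cblif as those furthest down, Pgc as the pepsinogen and Bhlha15 as the factor that binds E-boxes. A promoter was matched for 6 of the 7 members in RefSeq sequence of GRCm38.p6, and Pga5 is named only. Each line gives the 250 bases before the gene start on the gene's strand, 5′ to 3′, with capitals marking every CANNTG (the E-box, which reads the same on both strands) and every TATAAA on either strand.
Chia1 chr3:106113132-106113381 plus strand: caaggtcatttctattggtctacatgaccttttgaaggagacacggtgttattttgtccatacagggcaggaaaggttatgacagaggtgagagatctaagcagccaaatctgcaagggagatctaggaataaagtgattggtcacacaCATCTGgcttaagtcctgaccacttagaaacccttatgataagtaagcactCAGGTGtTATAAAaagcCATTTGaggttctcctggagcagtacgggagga
Cblif chr19:11747309-11747558 plus strand: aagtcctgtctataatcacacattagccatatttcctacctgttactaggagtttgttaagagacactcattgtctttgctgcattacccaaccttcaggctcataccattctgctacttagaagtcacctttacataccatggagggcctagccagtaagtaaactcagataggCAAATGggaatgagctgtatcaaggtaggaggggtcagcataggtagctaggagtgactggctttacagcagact
Pgc chr17:47726592-47726841 plus strand: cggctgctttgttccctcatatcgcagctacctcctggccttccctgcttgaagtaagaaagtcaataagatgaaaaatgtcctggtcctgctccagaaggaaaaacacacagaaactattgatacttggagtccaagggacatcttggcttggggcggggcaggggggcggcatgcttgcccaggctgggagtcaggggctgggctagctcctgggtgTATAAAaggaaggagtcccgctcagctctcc
Bhlha15 chr5:144190036-144190285 plus strand: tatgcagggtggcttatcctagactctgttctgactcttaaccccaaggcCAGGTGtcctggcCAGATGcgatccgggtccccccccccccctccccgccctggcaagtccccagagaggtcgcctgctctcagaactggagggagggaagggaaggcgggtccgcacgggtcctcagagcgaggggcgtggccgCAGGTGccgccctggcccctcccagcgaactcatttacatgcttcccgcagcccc

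The Chia1 window held 3 E-boxes, that of Bhlha15 held 3, that of Cpb1 held 2, that of Cblif held 1, and those of Pgc and Rab3d held 0. Windows of the same length hold at least 1 E-box in 66.2% of 32841 cases, so its presence is common. The variants CATATG and CAGCTG, found in 3.47% and 13% of windows and counted among the E-boxes, occurred in none of the 6 member windows. TATAAA, found in 12.4% of windows, began at position -43 from the gene start of Chia1 and at -31 from that of Pgc, and it did not occur in the other 4. These matches describe letters in the windows and not binding.

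Genes of the wider maturation programme moved in part. Of 7 listed genes, Xbp1 and targets of MIST1 other than Rab3d, 6 were tested and 4 were called lower and 0 higher, with a median log2 ratio of -1.19 beside 0.05 for all genes. Over all genes tested, 9.68% were called lower and 9.33% higher, which is the background for the next lists too. With median centring 1 was called lower and 1 higher, with a median of -0.11 beside 0.77. Of all 19437 genes, 556 were then called lower and 7747 higher, so the 1 higher call is no sign of a rise. Tmed6, which encodes a transport protein of the early secretory pathway, fell to -4.87 ± 0.10 (SD, n = 3; limma adjusted p = 0.000235). Elapor1, which promotes granule maturation, was at -3.13, -2.83 and -0.92 (mean -2.29 ± 1.20, SD, n = 3; adjusted p = 0.0196), and tumour 3 was again the highest. It was -2.98 without tumour 3, lost its call without tumour 1 (-1.88, adjusted p = 0.0574) or tumour 2 (-2.02, adjusted p = 0.0781), and lost it with median centring (-1.09, adjusted p = 0.109). Copz2, a coatomer subunit gene, fell to -1.26 ± 0.33 (adjusted p = 0.00515), and was not called with median centring (-0.33). Xbp1, named after its value was seen, was at -1.12 ± 0.05 (adjusted p = 0.00174), 0.50 with median centring and -0.26 when centred on spike-ins, so its direction depended on the scaling. Rab26, another MIST1 target, was not tested because it was well above background on 2 arrays in red and 1 in green.

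The machinery of granule release was lower in part. Of 16 tested genes 8 were called lower and 0 higher, with a median of -0.82. With median centring 5 were called lower and 6 higher, with a median of 0.38. With that centring, here and below, 556 of all 19437 genes were called lower and 7747 higher, with a median of 0.77. The 6 higher calls are therefore no sign of a rise particular to this list. Sytl1 (-3.73 ± 0.47, limma adjusted p = 0.000872) and Sytl4 (-3.14 ± 0.40, adjusted p = 0.000961), which encode synaptotagmin-like effectors of Rab27, fell. So did Rab27b, a granule GTPase gene (-2.75 ± 0.20, adjusted p = 0.000583; SD, n = 3 throughout). Within the Rab3 family, named after the values were seen, Rab3b was called lower at -2.38 ± 1.01, Rab3a was at -1.0 ± 0.30, and Rab3c at 0.51 ± 0.14 was not called. Rab3a was called lower here but not with median centring (0.10), with spike-in centring (-0.66) or without tumour 2 (-0.83), and Rab3c was called higher with median centring (1.73, limma adjusted p = 0.00053). Of 8 tested receptors for chief cell secretagogues and their modulators, 4 were called lower and 0 higher, with a median of -1.05. From the processed signals 6 were called lower, with a median of -4.09. When a probe had to pass the background test in both colours, only 3 of the 8 stayed tested. Of these 1 was called lower, with a median of -0.29, and the genes dropped as dim in the tumours included Cckar and Cckbr. The secretin receptor gene Sctr fell to -5.60 ± 0.92 (adjusted p = 0.00121) at its brightest probe. With the median of its probes it was at -3.76, so the size of its fall depended on the probe. The cholecystokinin receptor gene Cckar was not well above background in any tumour and was at least 22.4-fold lower, with a fitted log2 ratio of -4.63 ± 0.25 (adjusted p = 0.000360). That bound sets the mean pool signal against the mean, per array, of the higher of its own tumour signal and the dimmest red signal that passed the background test. Dye bias can affect it, as channel signals were used. The gastrin receptor gene Cckbr, which parietal cells also express, was at -2.31 ± 0.13 (adjusted p = 0.000592) and was well above background in 1 tumour.

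Relatives of the secreted products did not follow them as a group. For these and the other lists, the shares over all genes tested were 9.68% called lower and 9.33% called higher. Of 6 aspartic proteases other than the pepsinogens, 2 were called lower and 2 higher, with a median of -0.20 (-1.01 from the authors' deposited table, 0.71 with median centring). Bace2 (-2.05 ± 0.66) and Ctse, the cathepsin E gene (-1.49 ± 0.50), were called lower, but neither with median centring (-0.56 and 0.15), nor Ctse with spike-in centring (-0.61). Napsa, the napsin A gene (2.02 ± 0.88), was called higher, although in the pool it passed the background test on 1 array. Of 7 chitinase family genes, 1 was called lower and 1 higher, counts too few to set apart from those shares. Their median was 0.62, or -0.029 with spike-in centring, -0.22 with the authors' values, 1.19 with an offset of 0 and 1.22 from the processed signals. The count called higher was 3 from the processed signals, with an offset of 0 and with spike-in centring. Chil3, which encodes a chitinase-like protein of macrophages, rose to 4.50 ± 0.85 (limma adjusted p = 0.00164). Chid1 was at -1.01 ± 0.30 (adjusted p = 0.00746) and lost its call with median centring (-0.25) and without tumour 3 (-0.85).

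Of 15 other genes of vitamin B12 handling, 4 were called lower and 0 higher, with a median of -0.65, or 0.41 with median centring. Mmut, the methylmalonyl-CoA mutase gene (-2.58 ± 0.20, limma adjusted p = 0.000637), Cd320, the transcobalamin receptor gene (-2.12 ± 0.21, adjusted p = 0.000953), and Mmachc, a cobalamin processing gene (-1.75 ± 0.21, adjusted p = 0.00129), were lowest. Cd320 and Mmachc were under 2-fold with median centring (-0.74 and -0.86). Cd320 was at -1.27 with the median of its probes. Of 10 metallocarboxypeptidases tested besides Cpb1, 4 were called lower and 3 higher, with a median of -0.24 (-1.37 from the authors' deposited table, 0.10 with median centring). Cpxm1 rose to 4.16 ± 0.36 (adjusted p = 0.000548) and Cpm, a membrane-bound carboxypeptidase gene, fell to -3.40 ± 0.38 (adjusted p = 0.000788). Cpe, the prohormone-processing enzyme gene, had 0.67, 3.64 and 4.19 (mean 2.83 ± 1.89, adjusted p = 0.0362). It was not called without tumour 2 (2.42, adjusted p = 0.129), without tumour 3 (2.15, adjusted p = 0.147) or when dim probes were not filtered out (adjusted p = 0.0664), and was 3.91 without tumour 1 (SD, n = 3 throughout).

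**Figure D3:**
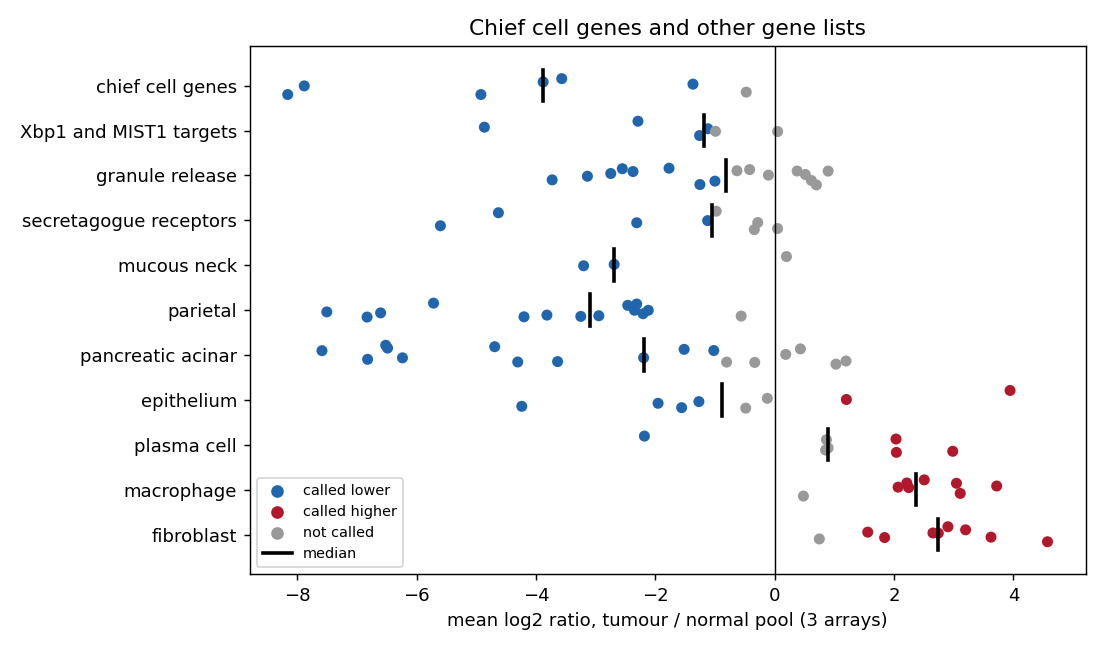
Mean log2 ratio of tumour over pool over 3 arrays for the chief cell genes and 10 other gene lists; each point is a gene, coloured by its call at an adjusted p under 0.05 and at least 2-fold, and black bars are medians. The chief cell median is -3.88, the parietal median is -3.1 and the mucous neck median is -2.69, while the macrophage (2.37) and fibroblast (2.74) medians lie above 0.

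Genes of other gland cells were mostly lower, and those of stroma mostly higher. Of 14 parietal cell genes 13 were called lower, with a median of -3.1 (-5.01 to -2.21 over the alternatives), and their summed normalised signal was 428900 to 454100 in the pool and 9978 to 16570 in the tumours. Kcne2 (-7.51 ± 0.35), Atp4b and Atp4a (-6.61 ± 0.36) were lowest. The summed signal of the 7 chief cell genes was 915400 to 1069000 in the pool and 19050 to 21530 in the tumours. Such sums of unlogged signals mainly reflect the brightest genes of a list. The brightest chief cell gene was Pgc, with a mean log2 signal of 18.95 in the pool and 14.02 in the tumours. Of 3 mucous neck genes, the chief cell precursors' markers, the mucin gene Muc6 (-3.20 ± 0.52, limma adjusted p = 0.00134) and the trefoil gene Tff2 (-2.69 ± 1.05, adjusted p = 0.00925) fell, and Gkn3 at 0.20 ± 0.75 was not called. Gkn3 was called higher when arrays were centred on the median (1.79, adjusted p = 0.00944) or on spike-ins (1.03, adjusted p = 0.00515). Tff2 had its highest ratio in tumour 3, was -3.28 without it, and was not called with median centring (-0.80, adjusted p = 0.202). The summed neck signal, mostly that of Tff2 in the pool, was 124900 to 147200 there and 17890 to 60060 in the tumours. Markers of chief cells with stem cell features were not called: Tnfrsf19 had -0.45 ± 0.19 and Lgr5 0.23 ± 0.18 (SD, n = 3), and Lgr5 was called higher at 1.08 with median centring.

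General epithelial markers were mixed, with 4 of 8 called lower and 2 higher and a median of -0.88, or 0.68 with median centring. The 4 include Cdh1, which the design targets in the tumours, so its ratio does not track epithelium alone. Cdh1, Cldn18 (-1.96 ± 0.48; -0.85 and not called with median centring) and Cldn7 (3.94 ± 0.25), the latter pair claudin genes, differed most. The summed epithelial signal was 237500 to 313900 in the pool and 130000 to 225200 in the tumours. Of 8 macrophage genes 7 were called higher and 0 lower, led by Cd14 (3.72 ± 0.25), Trem2 (3.11 ± 0.26) and Fcer1g (3.04 ± 0.17), with summed signals of 3273 to 3322 in the pool and 19230 to 20940 in the tumours. Of 9 fibroblast genes 8 were called higher and 0 lower, led by Fn1 (4.57 ± 0.44), Lum (3.62 ± 0.62) and Col1a1 (3.20 ± 1.42, and not called without tumour 2 at 3.1, adjusted p = 0.0532), with sums of 17360 to 19130 and 71710 to 193900. The part of these cells in the fall of the chief cell genes was not tested.

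Bhlha15, Rab3d and Cpb1 are also genes of pancreatic acinar cells, and Bhlha15 is expressed in plasma cells. Of 17 tested acinar genes besides these, 11 were called lower and 0 higher, with a median of -2.20. That median was -4.66 from the scanner software's processed signals and ran from -6.94 to -1.02 over all alternatives. Amy2a5 (-7.59 ± 0.21), the colipase gene Clps (-6.82 ± 0.24) and the lipase-related gene Pnliprp1 (-6.52 ± 0.23) were lowest. The summed signal, mostly that of Clps, was 709800 to 826400 in the pool and 8237 to 9027 in the tumours. Of the 21 listed acinar genes, 13 were well above background in the pool on all 3 arrays, among them the acinar transcription factor genes Ptf1a and Rbpjl and the trypsinogen genes Prss1 and Prss2. Another 7, among them the carboxypeptidase gene Cpa1 and the elastase genes Cela2a and Cela3b, were well above background on 0 arrays there. The genes of both sentences were named after their values were seen. Of 7 tested plasma cell genes 3 were called higher and 1 lower, with a median of 0.89. The count of higher genes was 5 from the processed signals and with an offset of 0 (medians 2.17 and 2.12) and 6 with median centring (median 2.12). Pou2af1, a B cell coactivator gene (2.98 ± 0.72), and Jchain, the immunoglobulin joining chain gene (2.04 ± 0.45), rose while Bhlha15 fell. Derl3, which serves the degradation of misfolded proteins of the endoplasmic reticulum, fell (-2.19 ± 0.41). The summed plasma cell signal was 4795 to 5295 in the pool and 7019 to 14080 in the tumours. The part of acinar or plasma cells in the Bhlha15, Rab3d and Cpb1 values was not tested.

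Across the 12 alternatives of processing and sample choice, Chia1, Cblif, Pgc, Bhlha15 and Pga5 were called lower in each. Their log2 ratios ranged from -8.28 to -6.49 for Chia1, from -8.05 to -6.31 for Cblif, from -5.46 to -2.89 for Pgc, from -4.61 to -2.82 for Bhlha15 and from -4.44 to -2.47 for Pga5. The upper ends of all 5 ranges came from median centring, which moved the median of the genes tested from 0.05 to 0.77.

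**Figure D4:**
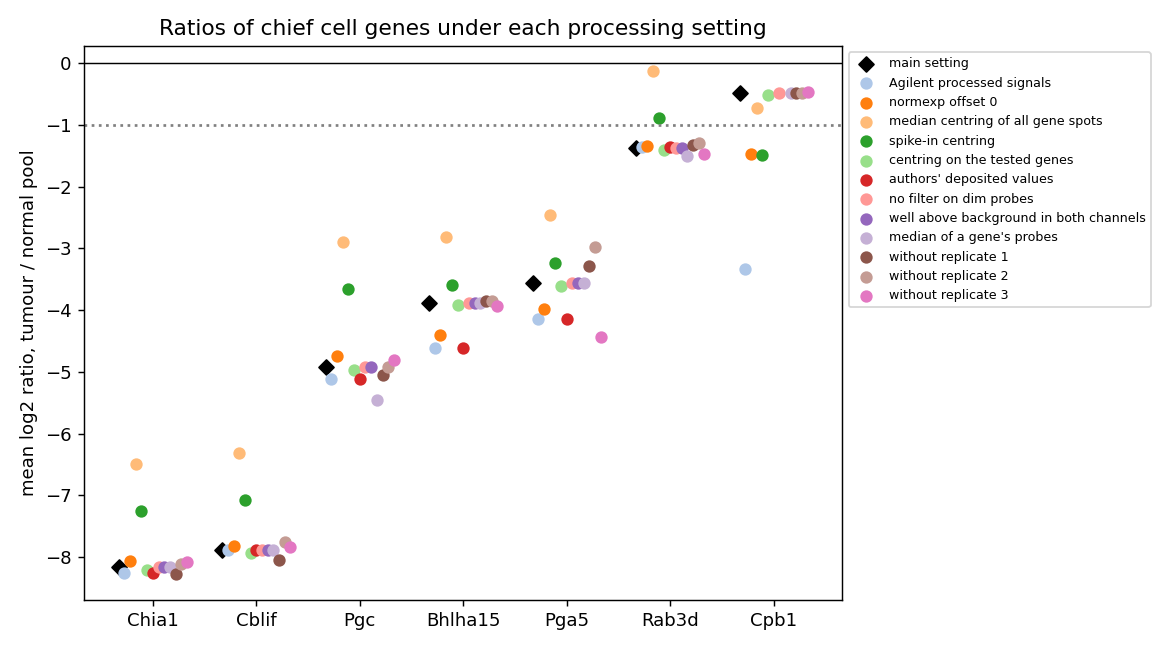
Mean log2 ratio of each chief cell gene under the main setting (black diamond) and each alternative (coloured points); the dotted line marks 2-fold lower. Chia1, Cblif, Pgc, Bhlha15 and Pga5 stay below -2 in all, whereas Rab3d reaches -0.13 with median centring and Cpb1 reaches -3.34 with Agilent's processed signals.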

How the data were processed

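Expression was measured on 3 Agilent arrays in 2 colours, each with 1 tumour in red and the same pool in green, and per the labels 250 ng of RNA (integrity number above 7) was used. No array had its dyes swapped. The deposited scanner files hold intensity values (mean spot signals, local median backgrounds and processed signals) and log10 ratios of red over green, made by the authors with Agilent Feature Extraction, whose version is 10.7.3.1 per the file headers but 9.5.3 per the submitters' processing notes. Log2 ratios stand in the authors' deposited value table; 99.8% lay within 0.01 of the scanner ratio on the log2 scale. Signals were corrected with normexp (offset 50) and normalised by loess within arrays in limma 3.58.1 under R 4.3.3, with control spots at weight 0. Spots flagged as outliers (157, 167 and 190) were left out. A probe was kept (24170 of 39429) if either colour was well above background on all 3 arrays. The brightest kept probe stood for its gene, and lmFit and eBayes gave a two-sided test of the log2 ratio against 0. Gene symbols came from matching 26055 probes to RefSeq, or from the files. Normalised signals are those after loess and Aquantile. Spike-in centring used the mean of the probe medians of the E1A controls. Ratios were simulated for 19437 genes in this comparison, of which 200 were changed. When they were changed by 2 log2 units 75.8% were recovered, and 96.0% when changed by 4, with 1 false call at each size. In the data 3696 genes were called, far more than 200, so recovery there may differ. Named genes are the members, up to 3 called genes of each list by size of ratio or else its brightest, the targeted genes and Atp4b, and the 2 nearest genes of each member. The members and lists were chosen with earlier results of these data known. The tumours are labelled as biological replicates, and only 3 arrays limit the precision.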

Additional observations from a re-analysis of the deposited data

How the results depend on the processing

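The count of chief cell genes called lower, 6 of 7, was 5 to 7 under the 12 alternatives, and 0 were called higher in any. Without the offset or with Agilent's processed signals Cpb1 was added, with median centring Rab3d was lost, and with spike-in centring Cpb1 was added and Rab3d lost. Leaving out replicate 1, 2 or 3 left the count at 6. Counts over all genes moved more. Against 1882 genes called lower, there were 3079 from Agilent's processed signals, 2883 from the values the authors deposited, where 16297 genes rather than 19437 were tested, and 556 with median centring. Against 1814 called higher, there were 3740 with Agilent's processed signals, 3192 with an offset of 0, 7747 with median centring and 3153 with spike-in centring. The cause of these shifts was not tested. With spike-in centring limma estimated 1 spread shared by all genes, so most of its very small adjusted p-values are not given. No member's ratio reversed its sign. Cpb1 could not be tested with the authors' values or with probes well above background in both channels. Signal over background limits Cpb1, which was well above background in 1 tumour. No paired analysis was possible because the tumours form 1 group compared with 1 pool.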

Other observations

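The pattern of Pga5, in which tumour 3 lay far above both other tumours, was counted among the 1882 genes called lower. Calling favours genes whose tumours agree, so the count does not show how rare the pattern is among all genes. A gap of at least 2 log2 units between tumour 3 and the higher of the others was found in 5 genes (0.266%), with gaps of the same size for tumour 1 in 2 genes and for tumour 2 in 4 genes. The 5 genes, named after their values were seen, were Pgap4 (gap 2.40), Pga5 (2.32), Ces1f, a carboxylesterase gene (2.12), Gstm6, a glutathione transferase gene (2.03), and Agr2, a protein disulfide isomerase gene of mucous cells (2.01). Elapor1 had a gap of 1.92 and Tff2 of 1.51. Pgc had no such gap at either probe.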
